A study of Mus musculus with 12 samples.

Results

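Simple epithelia are held together by a small set of keratins, and 4 of their genes are described here across a culture experiment on mouse embryonic stem cells: Krt7, Krt8, Krt18 and Krt19. They were taken by name, as every probe set of the array whose annotated gene symbol is exactly one of these, which gave 6 probe sets of 45037. Krt8 has 3 of them (1420647_a_at, 1435989_x_at and 1423691_x_at), while Krt18 (1448169_at), Krt7 (1423952_a_at) and Krt19 (1417156_at) have 1 each. All 6 were bright enough to be tested, among 27022 that were. The cells were of D3, an established mouse embryonic stem cell line, cultured for 7 days in serum-containing medium, and each condition was measured on 3 expression arrays, 12 in all. The LIF cultures received LIF (leukaemia inhibitory factor) at 1000 units per ml, and the LIF plus lithium cultures received LIF and lithium. The LIF-free cultures had neither, and the LIF-free plus lithium cultures had lithium alone. The labels give lithium as 50 nM, far below the millimolar range in which lithium is usually applied to inhibit GSK3, and the sources used here do not settle whether the unit is right. They number the arrays of a condition as biological replicates 1 to 3 without saying whether separate cultures or days stand behind a number, so the p values measure the spread between these arrays. The design allows the response to LIF withdrawal, the response to lithium and their interaction to be read.

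Keratins build intermediate filaments, and each filament needs a type II partner, here Krt8 or Krt7, and a type I partner, here Krt18 or Krt19. A keratin without a partner is degraded in the cell, which is why the balance of the types is of interest. Krt8 and Krt18 are the first keratins of the mouse embryo, made in the trophectoderm of the blastocyst and later in simple epithelia such as liver and gut. Krt7 and Krt19 join them in trophoblast, ducts and other simple linings. LIF holds serum-grown mouse embryonic stem cells undifferentiated through the transcription factor STAT3, and lithium inhibits the kinase GSK3, which restrains Wnt signalling.

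Krt8 and Krt18 lie next to each other on mouse chromosome 15 although they encode different keratin types: the RefSeq annotation (GRCm38.p6) lists 2 genes between them, both for long noncoding RNAs (Gm36026 and Gm41404), and 0 protein-coding genes. The promoters of Krt8 and Krt18 are shown so that the neighbouring pair can be compared, with that of Krt7 as the other type II gene. RefSeq's promoter table matched 3 of the 4 members, all but Krt19. Each runs from 250 bases before to 50 bases after the annotated start, 5′ to 3′ on the gene's own strand: Krt8 at chr15:102004293-102004592 (minus strand), Krt18 at chr15:102027966-102028265 (plus strand) and Krt7 at chr15:101412153-101412452 (plus strand). Capitals mark matches, on either strand, to a TATA box (TATAAA), a GC box (GGGCGG) or an ETS site (CAGGAAG).
Krt8: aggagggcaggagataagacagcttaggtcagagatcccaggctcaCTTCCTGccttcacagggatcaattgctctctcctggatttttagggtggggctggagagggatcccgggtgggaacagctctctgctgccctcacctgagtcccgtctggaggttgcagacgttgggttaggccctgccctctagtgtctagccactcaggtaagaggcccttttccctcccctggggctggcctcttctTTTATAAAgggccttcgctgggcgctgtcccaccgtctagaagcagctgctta
Krt18: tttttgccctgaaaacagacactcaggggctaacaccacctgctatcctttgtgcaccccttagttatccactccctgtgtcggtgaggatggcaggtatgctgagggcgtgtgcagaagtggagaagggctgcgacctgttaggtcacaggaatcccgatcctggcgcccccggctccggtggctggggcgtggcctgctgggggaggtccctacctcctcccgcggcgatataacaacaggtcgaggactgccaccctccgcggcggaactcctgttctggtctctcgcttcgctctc
Krt7: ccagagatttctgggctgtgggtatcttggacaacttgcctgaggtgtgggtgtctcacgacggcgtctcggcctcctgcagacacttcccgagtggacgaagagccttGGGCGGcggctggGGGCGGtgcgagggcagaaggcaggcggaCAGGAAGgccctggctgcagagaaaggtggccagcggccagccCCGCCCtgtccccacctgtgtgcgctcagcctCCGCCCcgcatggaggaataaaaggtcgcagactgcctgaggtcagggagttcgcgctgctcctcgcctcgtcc
Krt8 held a TATA box across its annotated start (positions -3 to 5 over both strands, whose matches overlap) and an ETS site on the opposite strand at -204 to -198. Krt7 held 4 GC boxes and an ETS site at -99 to -93, and Krt18 held none of these 3 motifs. AP-1 (TGANTCA), STAT (TTCNNNGAA) and TCF (CTTTGAT) sites were searched too, and none of the 3 windows held these letters. Of 32851 RefSeq promoters of 300 bases, 13.6% held the TATA box, 35.7% the GC box, 13.3% the ETS site, 7.81% the AP-1 site, 8.30% the STAT site and 3.73% the TCF site. A match is a run of letters, not a measured site.

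Across all arrays the median signal ran from 10.5 to 19.3, and the deposited values had been scaled to a common mean. The stem cell identity of the LIF cultures showed in Pou5f1, the Oct4 gene (2281 ± 989, mean signal ± SD, n = 3), Sox2 (2767 ± 573) and Nanog (1615 ± 249.8), the core pluripotency factors. Without LIF they were at 795 ± 129, 1339 ± 295 and 919 ± 223. The arrays measure whole cultures, so more cells that make a keratin and more keratin RNA per cell cannot be told apart in any value here.

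All 4 keratin genes rose when LIF was withdrawn, by 2.51 to 3.44 times without lithium and by 2.78 to 3.55 times with it. Changes are differences of mean log2 signal from limma, a linear model fitted to all tested probe sets, with p values adjusted by Benjamini-Hochberg and called below 0.05. The 6 keratin probe sets were all called in both comparisons, where 9.31% of all tested probe sets were called without lithium (5.40% as higher) and 12.5% with it (7.53% as higher). For each of the 6, every one of the 6 LIF-free arrays lay above every one of the 6 arrays with LIF, a separation that 8.22% of tested probe sets showed in that direction. The plot of signals by condition shows this gap for each gene. Markers of more than 1 cell type moved with LIF as well. Trophoblast markers summed to 538 to 853 in LIF and 1461 to 1752 in LIF-free arrays. Surface ectoderm markers summed to 273 to 479.9 and 593 to 754, mostly through Perp, which is also a desmosome gene. Its mean signal was 316 of a mean sum of 372 in LIF and 616 of 687 in LIF-free arrays. For mesothelium and mesoderm markers the sums were 110.4 to 190.3 and 227 to 397, though Wt1 and Msln, the mesothelium markers tested, did not pass. Sums of endoderm markers overlapped (693 to 1245 and 728 to 1098), as did those of fibroblast and feeder cell markers (82.3 to 224 and 193 to 351). The part of any of these in the keratin changes was not tested.

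**Figure D1:**
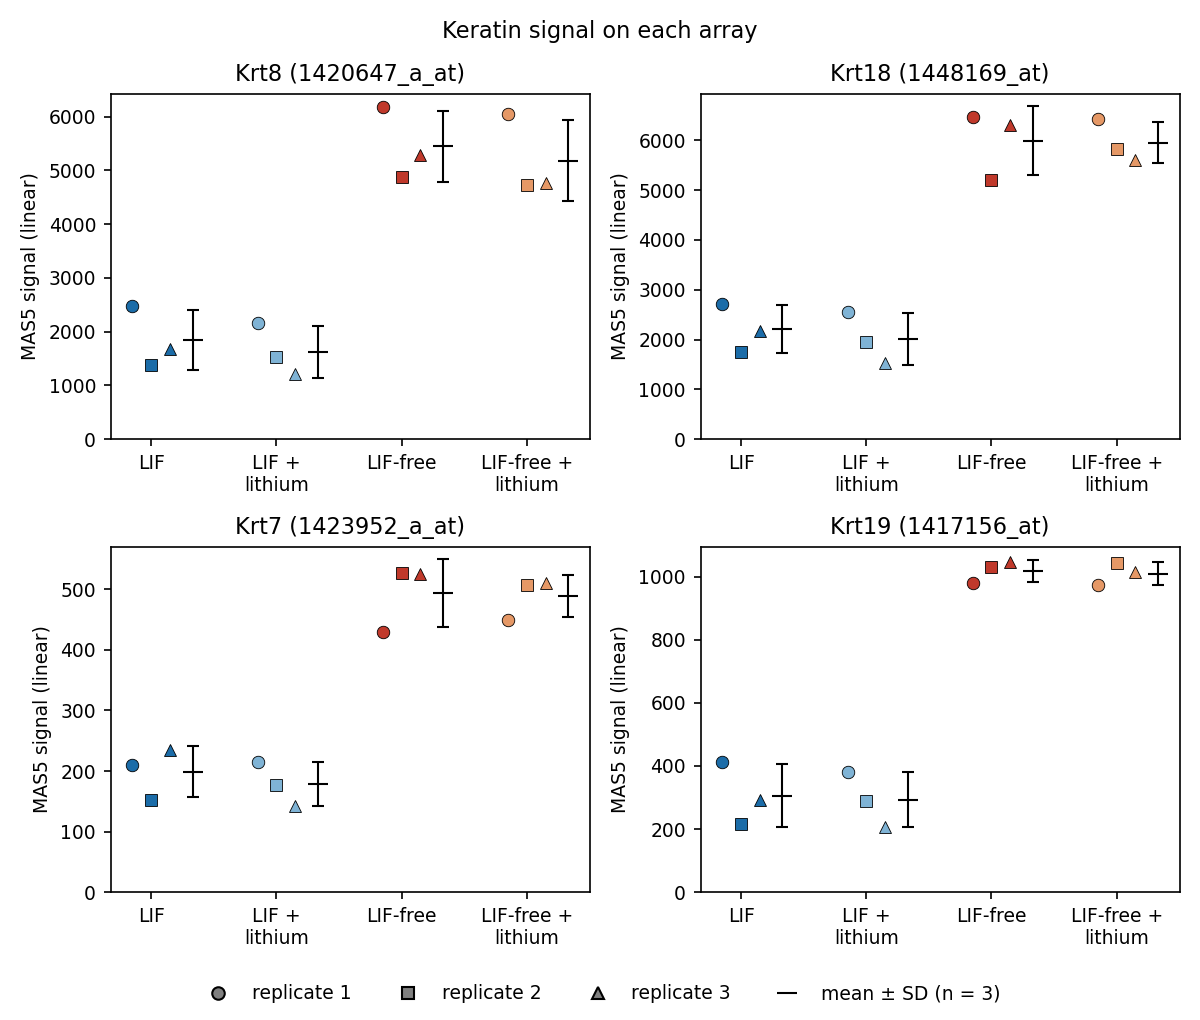
MAS5 signal (linear scale, from 0) of Krt8, Krt18, Krt7 and Krt19 on the 12 arrays, by culture condition; symbols mark the replicate number and bars the mean ± SD (n = 3). In every panel the 6 LIF-free arrays lie above the 6 with LIF, as for Krt8, where the lowest LIF-free value is 4734 and the highest with LIF is 2469.5.

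Krt8, the type II keratin of the earliest epithelia, had signals of 2469.5, 1380.2 and 1684 in LIF replicates 1, 2 and 3 (probe set 1420647_a_at). They were 6180.5, 4875 and 5285 in LIF-free replicates 1, 2 and 3. With lithium they were 2154, 1521 and 1204 in the presence of LIF and 6046, 4734 and 4758 in its absence. The lowest LIF-free array thus stood well above the highest LIF array, and replicate 1 was the highest of its condition in all 4. Krt8 rose by 1.60 log2 units without lithium (SE 0.23, 95% interval 1.11 to 2.09, adjusted p = 0.00203) and by 1.70 with it (SE 0.23, 1.21 to 2.20, adjusted p = 0.00103). Of all tested probe sets, 1.73% and 2.50% had a larger log2 rise in these comparisons.

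Krt18, the type I partner of Krt8, had signals of 2707, 1757 and 2163 in the LIF replicates and 6465, 5196 and 6309 in the LIF-free ones. In the presence of lithium they were 2549, 1959 and 1523 with LIF and 6421, 5828 and 5616 without. The arrays again fell into a low and a high group by LIF alone. The log2 rise was 1.45 without lithium (SE 0.19, 95% interval 1.04 to 1.87, adjusted p = 0.00158) and 1.60 with it (SE 0.19, 1.19 to 2.01, adjusted p = 0.000675).

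Krt19, a type I keratin of ducts and trophoblast that has nearly no tail domain, had the largest change of the 4 genes. Its signals were 412, 215 and 292 in the LIF replicates and 979, 1029.8 and 1046 in the LIF-free ones. With lithium they were 381, 290.2 and 207 in the presence of LIF and 972, 1042 and 1015 in its absence. The LIF-free values lay close to one another while those with LIF spread widely: the coefficient of variation was 28.0% over the 6 arrays with LIF and 3.14% over the 6 without. Krt19 rose by 1.78 log2 units without lithium (SE 0.23, 95% interval 1.29 to 2.28, adjusted p = 0.00158) and by 1.83 with it (SE 0.23, 1.33 to 2.33, adjusted p = 0.000787).

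Krt7, a type II keratin of ductal and trophoblast linings, had the smallest change of the 4. Its signals were 209.7, 152 and 235 in the LIF replicates and 429, 527 and 526 in the LIF-free ones. With lithium they were 215, 177 and 143 in the presence of LIF and 449, 507 and 511 in its absence. Here replicate 1 was the lowest of the LIF-free arrays, the reverse of Krt8. The log2 rise was 1.33 without lithium (SE 0.19, 95% interval 0.92 to 1.73, adjusted p = 0.00201) and 1.47 with it (SE 0.19, 1.07 to 1.88, adjusted p = 0.000837). The intervals of the 4 genes overlap, so this order of sizes is not a tested one except where the ratios given further on test it.

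The other 2 probe sets of Krt8 end in _x_at, a suffix for sets whose probes can match further transcripts, and a Krt8 pseudogene (Krt8-ps) is annotated. They followed the first closely. Over the 12 arrays their log2 signals correlated with it at r = 0.998 for 1435989_x_at and r = 0.997 for 1423691_x_at, as a description of probe sets read from the same arrays. Without lithium they rose by 1.57 (adjusted p = 0.00196) and 1.58 log2 units (adjusted p = 0.00239), and with lithium by 1.69 (adjusted p = 0.000921) and 1.79 (adjusted p = 0.00103).

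Averaged over both lithium states, with 6 arrays against 6, the log2 rise was 1.65 for Krt8 (SE 0.16, adjusted p = 3.39e-05), 1.53 for Krt18 (SE 0.13, adjusted p = 2.10e-05), 1.81 for Krt19 (SE 0.16, adjusted p = 2.12e-05) and 1.40 for Krt7 (SE 0.13, adjusted p = 2.91e-05). All 6 keratin probe sets were called, where 24.7% of all tested were called in either direction and 13.9% as higher. At most 0.485% of tested probe sets had a smaller p than any of them. With the replicate number as a block all 6 were again called in the 3 LIF withdrawal comparisons, where the share called among all tested was 19.5% without lithium, 22.0% with it and 33.6% on average. An exact permutation test of each probe set on its own, two-sided with LIF labels exchanged within each lithium state, gave p = 0.005 for each of the 6, the smallest value that its 400 arrangements allow.

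No effect of lithium on the keratins was called. The intervals bound the effect of the lithium these cultures received, whose labelled concentration is doubtful. With LIF, the log2 change on adding lithium was -0.18 for Krt8 (95% interval -0.67 to 0.31), -0.15 for Krt18 (-0.56 to 0.27), -0.16 for Krt7 (-0.56 to 0.25) and -0.06 for Krt19 (-0.56 to 0.44), each with limma adjusted p = 0.999. Without LIF it was -0.08 for Krt8 (-0.57 to 0.42), -0.004 for Krt18 (-0.41 to 0.41), -0.01 for Krt7 (-0.42 to 0.39) and -0.01 for Krt19 (-0.51 to 0.48), each with limma adjusted p = 1.0. The values of the lithium and lithium-free arrays overlapped for all 6 keratin probe sets in both LIF states, as they did for most tested probe sets. Only 6.72% of tested probe sets did not overlap with LIF and 6.01% without. In fold terms the intervals for Krt8 run from 0.627 to 1.24 with LIF and from 0.674 to 1.34 without, so a doubling or a halving by lithium lies outside them. limma called 0 of the 6 keratin probe sets and 0 of the 27022 tested (0%) in each lithium comparison. At an unadjusted p under 0.05 the counts were 0 of 6 and 749 of 27022 with LIF, and 0 of 6 and 347 of 27022 without. With the replicate number as a block the counts of adjusted calls remained 0, and those of unadjusted ones were 0 and 1567 with LIF, and 0 and 824 without.

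Whether lithium alters the response to LIF withdrawal was tested by the interaction, the LIF-free minus LIF change with lithium less that without. It was 0.11 log2 units for Krt8 (95% interval -0.59 to 0.80), 0.14 for Krt18 (-0.44 to 0.72), 0.14 for Krt7 (-0.43 to 0.72) and 0.05 for Krt19 (-0.65 to 0.75), each with limma adjusted p = 0.999. The count of calls was 0 among the 6 keratin probe sets and 0 among all tested (0%), and at an unadjusted p under 0.05 it was 0 of 6 and 666 of 27022. These intervals are wider than those of single changes, since 4 means enter each. The plot of changes by comparison sets the LIF effects beside these.

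**Figure D2:**
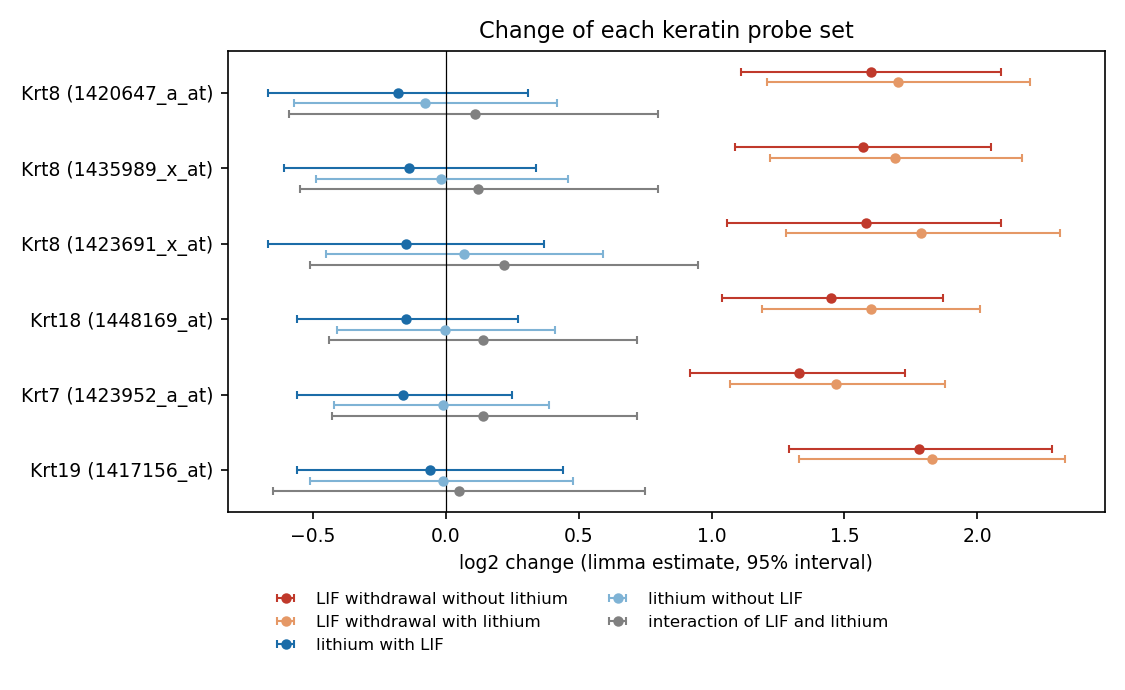
limma log2 change with its 95% interval for the 6 keratin probe sets in 5 comparisons. Both LIF withdrawal comparisons lie above 0 throughout, from 1.33 to 1.83, whereas every interval of the lithium and interaction terms spans 0.

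The balance of Krt8 to Krt18, a type II keratin and a type I partner of it, was read on each array as the log2 ratio of their signals. Krt7 and Krt19 can serve as partners too, so this ratio is not the whole balance of the types. Signals of different probe sets are not comparable as amounts, so only differences of the ratio between arrays carry meaning. It was -0.13, -0.35 and -0.36 in LIF replicates 1, 2 and 3 and -0.24, -0.37 and -0.34 in the LIF plus lithium ones. It was -0.07, -0.09 and -0.26 in the LIF-free replicates and -0.09, -0.30 and -0.24 in the LIF-free plus lithium ones. The conditions overlapped, and replicate 1 had the highest ratio in all 4. The mean was -0.30 ± 0.09 (SD, n = 6 arrays) with LIF and -0.17 ± 0.10 (n = 6) without, a difference of 0.13 log2 units, or 1.09 times, toward Krt8. It was 0.14 without lithium and 0.11 with it, and upward in 6 of 6 pairs of arrays with the same replicate number, between 0.07 and 0.26. An exact permutation test, two-sided and within lithium states, gave p = 0.055, or 0.11 adjusted over the 6 ratios among the 4 genes, which misses the threshold. With the signs of the same-number differences permuted instead, the exact p was 0.0312, unadjusted over the ratios and the smallest that 6 pairs allow. Same-numbered arrays deviate together across lithium states, so the 6 pairs are not independent. The pairs with lithium also fell short of the pairing threshold given with the processing. Lithium moved the balance by -0.05 (exact permutation p = 0.375, higher in 2 of 6 pairs).

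Krt19 gained on Krt18 and on Krt7 when LIF was withdrawn. The log2 ratio of Krt19 to Krt18, both type I keratins, went from -2.83 ± 0.12 (n = 6) to -2.55 ± 0.15 (n = 6), a difference of 0.28 (exact permutation p = 0.01, adjusted p = 0.03 over 6 ratios, upward in 5 of 6 same-number pairs). With the pairs' signs permuted the exact p was 0.0625. The log2 ratio of Krt7 to Krt19 fell from -0.64 ± 0.24 (n = 6) to -1.05 ± 0.09 (n = 6), a difference of -0.41 (exact permutation p = 0.01, adjusted p = 0.03, downward in 6 of 6 pairs). The ratios of Krt7 to Krt18 (difference -0.13, exact permutation p = 0.35), Krt7 to Krt8 (-0.25, exact permutation p = 0.165) and Krt19 to Krt8 (0.16, exact permutation p = 0.14) did not pass, which does not show that they stayed alike. For Krt7 to Krt8, which was lower without LIF in 6 of 6 same-number pairs, permuting the pairs' signs gave an exact p of 0.0312. As for Krt8 to Krt18, these sign-permuted p values are unadjusted and take the 6 pairs as independent. For lithium the differences of the 6 ratios lay between -0.05 and 0.09, with exact permutation p values from 0.335 to 0.945 and adjusted ones of 0.942 to 0.945.

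**Figure D3:**
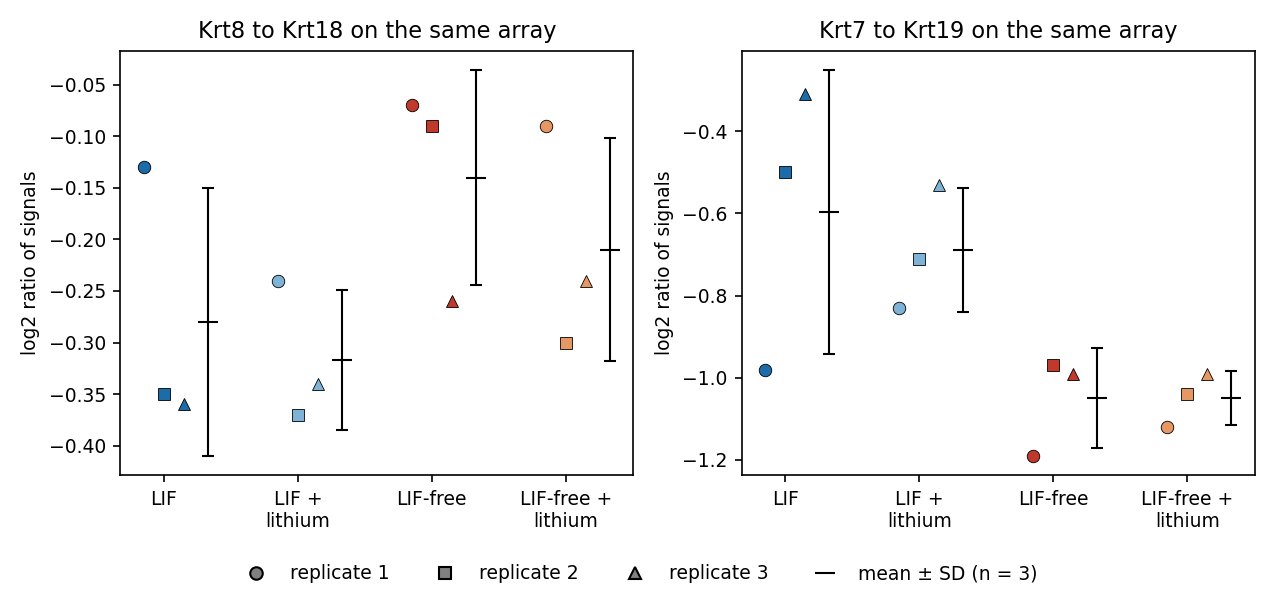
Log2 ratio of signals on the same array for Krt8 to Krt18 (left) and Krt7 to Krt19 (right), by condition; symbols mark the replicate number and bars the mean ± SD (n = 3). The Krt8 to Krt18 ratio overlaps between conditions (-0.37 to -0.07), while the Krt7 to Krt19 ratio is lower in the LIF-free conditions (means of -1.05) than with LIF (-0.59, and -0.69 with lithium), with 1 LIF array at -0.98 inside the LIF-free range.

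Among arrays of the same LIF state the keratins did not all vary alike. Correlations of log2 signal over the 6 arrays of a state are given as descriptions with no test, since same-numbered arrays of the lithium and lithium-free conditions deviate together and are not independent. With LIF, Pearson r was 0.988 for Krt8 with Krt18, 0.972 for Krt8 with Krt19 and 0.977 for Krt18 with Krt19, and it was 0.908 or more for each when the 2 arrays farthest from the median were left out. In both conditions with LIF, replicate 1 had the highest signal of all 3 of these genes. The highest Krt8 signal was 1.79 times the lowest, among both the LIF and the LIF plus lithium arrays. Krt7 followed the other 3 with r between 0.784 and 0.854, which fell to between 0.179 and 0.430 without the 2 farthest arrays.

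Without LIF the signs were mixed. Krt8 with Krt18 had r = 0.809 over the 6 arrays, while Krt8 with Krt19 had r = -0.820 and Krt18 with Krt19 had r = -0.509. Krt7 with Krt8 had r = -0.882, Krt7 with Krt18 r = -0.690 and Krt7 with Krt19 r = 0.913. Without the 2 farthest arrays r was 0.561 for Krt8 with Krt19, 0.734 for Krt7 with Krt8 and 0.243 for Krt7 with Krt19. For Krt7 with Krt18 it was -0.0599, so the values of these pairs rest on 2 arrays. The sign held for Krt8 with Krt18 (r = 0.632) and for Krt18 with Krt19 (r = -0.700). Replicate 1 had the highest Krt8 and Krt18 signals in both LIF-free conditions, and the lowest Krt7 and Krt19 signals. What a replicate number shares is not given in the labels.

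**Figure D4:**
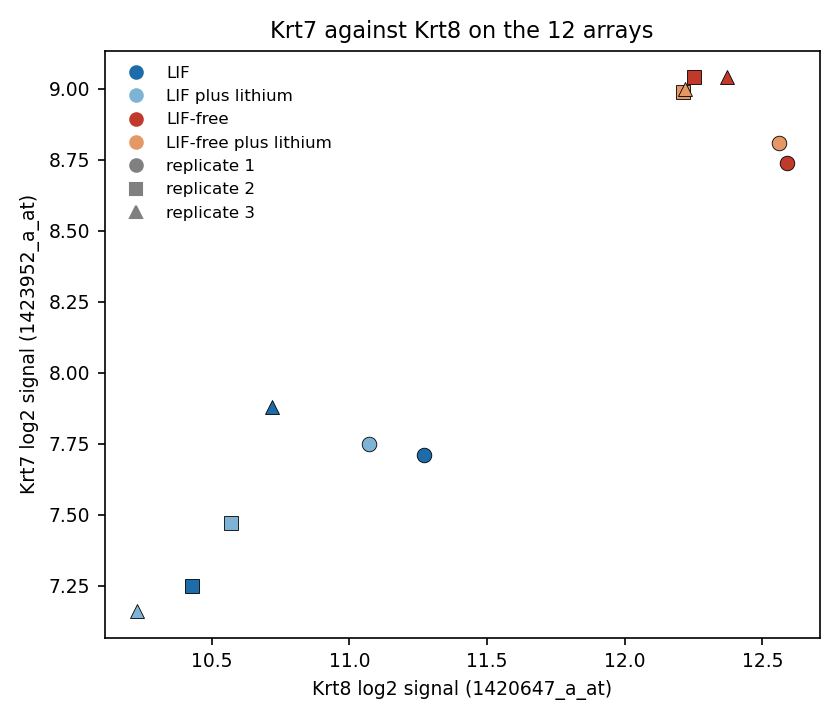
Krt7 against Krt8 log2 signal on the 12 arrays, coloured by condition, with symbols for the replicate number. The arrays form 2 groups by LIF, and among the 6 LIF-free arrays the 2 replicate 1 arrays have the highest Krt8 (6180.5 and 6046 in signal) and the lowest Krt7 (429 and 449).

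The other keratin genes on the array gave few calls. Of 28 further keratins looked for, 12 were bright enough to be tested, and the average LIF withdrawal called 0 higher and 2 lower, where 17.2% of all tested genes were called higher and 13.7% lower. Their median log2 change was 0.22, against 0.02 for all tested genes, and the 16 dim ones were not tested. Krt80 (log2 change 1.24, adjusted p = 0.136), Krt71 (0.94, adjusted p = 0.364) and Krt20 (0.93, adjusted p = 0.0763) had positive changes that did not pass by limma. Krt42, a type I keratin, fell from 93.9 ± 16.2 with LIF to 19.4 ± 5.79 without (mean signal ± SD over the 6 arrays of each LIF state, as in the values that follow), with an average log2 change of -2.31 (adjusted p = 2.66e-05). Krt10, the type I keratin of the upper epidermis, fell by 0.60 (adjusted p = 0.0123). Krt5, the basal epidermal keratin, had low signals (11.2 ± 3.64 with LIF, 13.9 ± 5.81 without), and Krt14, its partner, was below the filter. With the replicate number as a block the count was 1 higher and 2 lower, and with array weights 4 were higher.

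Genes of desmosomes, the junctions on which keratin filaments are anchored, and of other keratin linkers rose in part. Of 19 tested of 24 listed, 10 rose, 0 fell and 9 did not pass in the average LIF withdrawal, where 17.2% of all tested genes rose and 13.7% fell. The median log2 change was 0.64. Dsp, the desmoplakin that ties keratin to the junction, rose from 579.5 ± 229.7 with LIF to 1610.2 ± 388 without (average log2 change 1.54, adjusted p = 0.00109). Pkp2, a plakophilin of simple epithelia, rose from 553 ± 138 to 1277 ± 65.7 (average log2 change 1.25, adjusted p = 0.000141). Dsc2, a desmosomal cadherin, rose from 86.8 ± 33.5 to 267 ± 28.3 (average log2 change 1.71, adjusted p = 0.000204). Cd151, a tetraspanin of hemidesmosomes, rose by 0.78 (adjusted p = 0.000476), and Aif1l, an actin-bundling protein that the list held though it is no known keratin linker, by 1.19 (adjusted p = 0.000556). Jup, the plakoglobin of desmosomes, changed by 0.12 and did not pass (adjusted p = 0.699).

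Of 13 other intermediate filament genes tested, 2 rose, 1 fell and 10 did not pass, with a median log2 change of -0.08. These counts are near or under the shares over all tested genes, 17.2% rising and 13.7% falling. Vim, the vimentin of mesenchymal cells, rose from 588 ± 211 with LIF to 1708 ± 466 without (average log2 change 1.56, adjusted p = 0.000449), a change of the size seen for Krt8 and Krt18. Nefh, a neurofilament subunit, fell from 49.5 ± 6.73 to 14.8 ± 7.93 (average log2 change -1.99, adjusted p = 0.00395). The call of Lmna, the gene of lamins A and C (log2 change 0.37, adjusted p = 0.0464), was lost in 14 of 20 alternative settings, with adjusted p up to 0.366 after median centring. Without it the count of rises was 1.

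Junction and surface genes of epithelia made up the list with the largest share of rises among the 5 lists of related genes: 12 of 17 tested rose, 0 fell and 5 did not pass, where 17.2% of all tested genes rose and 13.7% fell. The median log2 change was 0.80. The tight junction genes Cldn3 (log2 change 1.51, adjusted p = 8.94e-05), Cldn6 (1.21, adjusted p = 0.00012), Cldn7 (1.07, adjusted p = 0.000142) and Ocln (1.28, adjusted p = 0.00016) had the smallest p values by limma. Cdh1, the E-cadherin already abundant in stem cells, went from 2336 ± 259.6 with LIF to 3124 ± 188 without (average log2 change 0.42, adjusted p = 0.00429), a call that median centring ended (adjusted p = 0.202). Epcam, an adhesion molecule of stem cells and epithelia, did not pass (log2 change 0.24, adjusted p = 0.308).

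Among 23 tested genes for regulators of keratin and epithelial genes, 12 rose, 4 fell and 7 did not pass, where 17.2% of all tested genes rose and 13.7% fell, so the count that fell is near that share. The median log2 change was 0.43. Klf6, a zinc finger factor, rose by 1.18 (adjusted p = 3.32e-05), Gata3, a trophoblast factor, by 2.12 (adjusted p = 0.000118) from low signals (14.1 ± 4.61 with LIF, 61.3 ± 18.7 without), and Ets1, an ETS factor, by 2.06 (adjusted p = 0.000208). Ets2, an ETS factor known to act on the Krt18 gene, rose by 0.50 (adjusted p = 0.0188), and its call was lost in 3 of 20 settings: after median centring (adjusted p = 0.28) and without replicate 2 of either LIF-free condition, with adjusted p up to 0.0537 (LIF-free replicate 2). Cdx2, the factor of trophectoderm, rose from 17.7 ± 7.67 to 68.0 ± 28.1 (average log2 change 1.92, adjusted p = 0.0017). Klf4 and Klf5, zinc finger factors shared by the stem cell state and epithelia, fell by 2.25 (adjusted p = 1.36e-05) and by 1.18 (adjusted p = 0.000499).

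**Figure D5:**
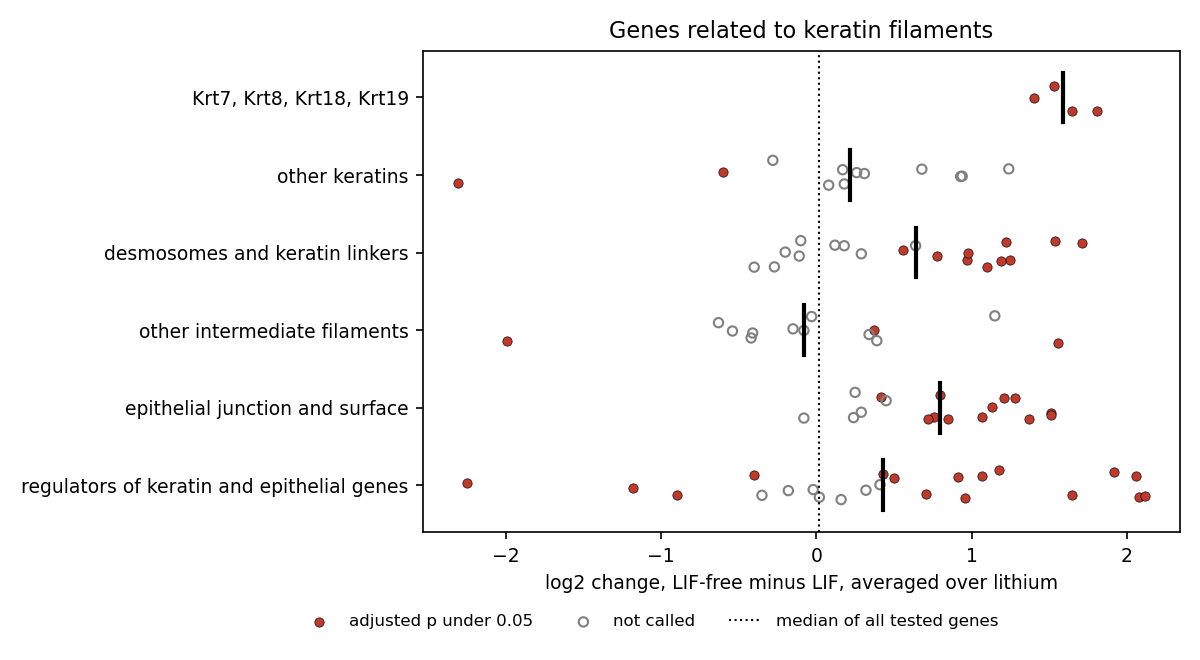
Log2 change from LIF to LIF-free, averaged over lithium, for the 4 keratins and the tested genes of 5 related lists; filled points passed an adjusted p of 0.05, thick bars are medians and the dotted line is the median of all tested genes (0.02). The 4 keratins lie between 1.40 and 1.81, and the list medians run from -0.08 to 0.80.

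Most tested trophoblast markers rose with LIF withdrawal, while the calls among endoderm markers went both ways. Of 14 trophoblast markers, 11 have a probe set and 9 were tested. In the average LIF withdrawal 8 of the 9 rose and 0 fell, where 17.2% of all tested genes rose and 13.7% fell, and their summed signal was 538 to 853 in LIF, 671 to 725 in LIF plus lithium, 1461 to 1752 in LIF-free and 1397 to 1806 in LIF-free plus lithium arrays. Plac1, a placental gene, rose by 2.80 log2 units (adjusted p = 0.000148), Peg10, an imprinted placental gene, by 2.27 (adjusted p = 0.000103) and Tfap2c, a trophoblast factor, by 0.71 (adjusted p = 0.00135). The call of Tfap2c ended with median centring (adjusted p = 0.0699). Elf5 and Tpbpa, markers of trophoblast stem cells and spongiotrophoblast, stayed below the filter. Of visceral and primitive endoderm markers, 3 of 11 tested rose, 2 fell and 6 did not pass, close to the 17.2% and 13.7% of all tested genes. Their summed signal was 693 to 1245 in LIF, 618 to 1203 in LIF plus lithium, 728 to 1098 in LIF-free and 736 to 853 in LIF-free plus lithium arrays, so the conditions overlapped, and Afp, Apoa1 and Apob were below the filter. Foxa2 rose by 1.46 (adjusted p = 0.00033) and Ttr, from low signals (5.20 ± 2.97 with LIF), by 2.29 (adjusted p = 0.00527). Amn fell by 1.33 (adjusted p = 0.00316) and Lama1, a laminin chain of basement membranes, by 1.07 (adjusted p = 0.00182).

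The counts of the other marker lists stand against the same 17.2% of all tested genes that rose and 13.7% that fell. The lists share genes, so their counts are not separate. Krt5, Tfap2a and Perp, the tested surface ectoderm markers, were all in earlier lists. Cdx2, Gata3 and Tfap2c were in both the trophoblast list and that of regulators. Of surface ectoderm markers, 2 of 3 tested rose, Tfap2a (log2 change 0.91, adjusted p = 0.0299, lost in 6 of 19 settings) and Perp, a desmosomal membrane protein (0.98, adjusted p = 0.000866). Krt5 did not pass (0.26, adjusted p = 0.669). The summed signal of the list, most of it from Perp, ran from 273 to 479.9 in LIF, 309 to 456 in LIF plus lithium, 593 to 754 in LIF-free and 569 to 789 in LIF-free plus lithium arrays, with Trp63, Krt14 and Cldn1 below the filter. Of fibroblast and feeder cell markers, 5 of 8 tested rose and 1 fell, the latter near that share. With LIF, Col1a1 (5.94 ± 5.87), Twist2 (7.43 ± 3.51) and Postn (7.55 ± 11.0), all among those that rose, were under or near the filter signal of 7.52. Their LIF-free values carried them past the filter, so the 5 of 8 is not a fair count against the share of all genes. Postn was called in neither single LIF withdrawal (limma adjusted p = 0.121 without lithium and 0.0720 with it). The summed signal of the list was low throughout: 82.3 to 224 in LIF, 73.3 to 145 in LIF plus lithium, 193 to 351 in LIF-free and 233 to 483 in LIF-free plus lithium arrays, with Dcn and Lum below the filter. Cxcl12 (log2 change 2.83, adjusted p = 0.000569), Twist2 (2.36, adjusted p = 0.00392), Col3a1 (adjusted p = 0.00435) and Postn (3.28, adjusted p = 0.0116) had the smallest p values among them. Of mesothelium and mesoderm markers, 4 of 7 tested rose and 0 fell. The 4 were Tbx20 (1.36, adjusted p = 0.000173), Hand2 (3.46, adjusted p = 0.000932), Kdr (2.59, adjusted p = 0.00381) and Mesp1 (1.13, adjusted p = 0.0145). Signals of Hand2 and Kdr with LIF were low (7.62 ± 7.40 and 9.27 ± 6.65). By limma both were called with lithium (adjusted p = 0.00491 and 0.00483) but not without it (0.0711 and 0.442). Wt1 (0.70, adjusted p = 0.253) and Msln (-0.45, adjusted p = 0.367), the mesothelium markers tested, did not pass, nor did Tbx6 (0.04, adjusted p = 0.943). The summed signal was 110.4 to 190.3 in LIF, at most 121 in LIF plus lithium, 227 to 397 in LIF-free and 239.6 to 427 in LIF-free plus lithium arrays, with Upk3b below the filter. Of 8 pluripotency markers, 0 rose and 7 fell, with a summed signal of 18268 to 28663 in LIF, 20862 to 21679 in LIF plus lithium, 11574 to 14509.8 in LIF-free and 9504 to 14100.0 in LIF-free plus lithium arrays. Dppa5a, which did not pass (log2 change -0.22, adjusted p = 0.237), had the highest mean signal of the 8 (8493 in LIF, 6639 in LIF-free). Each marker sum is weighted to its brightest probe sets, whose signals are not comparable as amounts. Tdgf1, the Nodal co-receptor Cripto, fell by 1.89 (adjusted p = 1.69e-05), Zfp42 by 1.25 (adjusted p = 2.91e-05), Esrrb by 1.89 (adjusted p = 0.000137) and Pou5f1 by 1.48 (adjusted p = 0.000287). A measure of RNA and labelling quality moved as well: the Gapdh 3 prime to 5 prime signal ratio was 0.798 to 0.860 over the 6 arrays with LIF and 0.739 to 0.802 over the 6 without. The same ratio for actin was 1.49 to 1.98 with LIF (mean 1.76) and 1.45 to 1.70 without (mean 1.58), so it moved the same way with ranges that overlapped in part. The part of these markers and of these ratios in the keratin changes was not tested.

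The genes whose pattern over the 12 arrays was most like each keratin were found by Pearson r of log2 signal among 12209 named genes. Since the arrays fall into 2 groups by LIF, r here mostly ranks genes by how cleanly they follow LIF and is given as a measure of likeness only. The gene most like Krt8 was Krt18 (r = 0.996), and Krt8 was the most like Krt18. After Krt18 came Cdkn1c, an inhibitor of cyclin-dependent kinases (r = 0.990), Lgals1, the galectin-1 gene (0.989), S100a10, a calcium-binding-family protein that partners annexin A2 (0.989) and Kctd10, an adaptor of ubiquitin ligases (0.986). Next to Krt18, after Krt8, were Krt19 (r = 0.991), Pea15a, a binder of ERK (0.988), S100a10 (0.987) and Kctd10 (0.986). Krt19 was closest to Lrrn4, a leucine-rich repeat membrane protein (r = 0.992), followed by Krt18 (0.991), Rcbtb2 (0.988), Pea15a (0.988) and Prag1 (0.987). Krt7 was closest to Timp2, an inhibitor of matrix proteases (r = 0.988), Tpm1, a tropomyosin (0.986), Cnn2, a calponin (0.986) and Tapbp, the tapasin of antigen presentation (0.984), with Krt19 as the fifth (0.982). Krt18 stood 28th and Krt8 71st in likeness to Krt7.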

How the data were processed

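The authors deposited linear signal intensities, one per probe set, computed with MAS5 per the submitters' processing notes; version and settings are not given in the sources used here. Of 45101 probe sets, 64 Affymetrix controls were left out. Signals under 1 were set to 1 (0.146% of tested values) and log2 was taken. The 27022 probe sets with a mean above the 40th percentile (a signal of 7.52) were tested. Symbols came from the platform annotation: 34945 probe sets have 1, 932 several and 9160 none; only those with 1 were named. A gene stands by its brightest tested probe set, an _x_at set only where it has no other.

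limma 3.58.1 (R 4.3.3) fitted a mean per condition to all 12 arrays, with an intensity trend and 8 residual degrees of freedom; tests were two-sided. Exact permutation tests and plots used Python 3.11.15, scipy 1.17.1 and matplotlib 3.10.9. With 3 arrays against 3, a permutation cannot give p under 0.1. The limma steps were tested on simulated data. Members and lists were chosen with earlier results of these data known.

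Named genes were the 4 keratins, up to 4 called genes per list with the smallest p in the average LIF withdrawal, Vim, Dsp, Cdh1, Epcam, Ets2, Cdx2, Gata3 and Klf5 whatever their values, and the 5 genes most like each keratin, leaving aside provisional symbols (those with a Rik ending, or a LOC or numbered Gm name). Jup, Krt5, Krt20, Krt71, Krt80, Sox2 and Nanog were added after their values were seen. Residuals of arrays with equal replicate numbers (numbers from the labels) correlated above 0.1 in all 3 numbers for LIF with LIF-free (0.438, 0.137 and 0.339), LIF with LIF plus lithium (0.499, 0.139 and 0.321) and LIF-free with LIF-free plus lithium (0.462, 0.111 and 0.3), so these comparisons count as paired. For LIF plus lithium with LIF-free plus lithium the lowest was 0.0972. The limma SEs, intervals and p values above nonetheless come from the fit without a replicate block, unless the block is named. For Krt8 (1420647_a_at) the SE of a LIF or lithium change within 1 state of the other factor was 0.23 without the block and 0.14 with it. Alternatives were other scalings, a pseudocount of 16, other filters, a replicate block, no trend, array weights, fewer arrays and leaving out each array.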

Additional observations from a re-analysis of the deposited data

How the results depend on the processing

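The 6 keratin probe sets were called in both LIF withdrawal comparisons and in their average under every alternative run, and in 0 cases in the lithium comparisons and the interaction. Over the leave-outs of single arrays, the Krt8 log2 change without lithium ran from 1.41 to 1.83, with a highest adjusted p of 0.013 (without LIF replicate 2). The replicate block ended no keratin call. Signs of lithium changes, which passed no threshold, were not stable: for Krt8 with LIF they ran from -0.24 to 0.19 over the scalings and other settings, the latter after median centring, which moves the median of all tested probe sets in that comparison from -0.08 to 0.29. The Krt8 to Krt18 balance on LIF withdrawal passed 0.05 by the exact permutation test, unadjusted, with the mean of all probe sets (0.13, p = 0.045), after quantile normalisation (0.13, p = 0.045), with the replicate block (0.13, p = 0.0312), without LIF replicate 1 (p = 0.03) and without LIF-free plus lithium replicate 2 (p = 0.035). Its values ran from 0.09 to 0.16 with single arrays left out, and the highest p was 0.135 without LIF replicate 3. The cause was not tested. The ratio of Krt7 to Krt19 kept p under 0.05 in 15 of 15 alternatives, which like the list counts' alternatives were chosen after seeing the data, and that of Krt19 to Krt18 in 14 of 15, the replicate block being the exception. With a filter at the 60th percentile the counts of fibroblast and of mesoderm markers that rose were 1 and 1. The counts of surface ectoderm markers that rose ranged from 1 to 2 and of endoderm markers that rose from 2 to 5. With 3 arrays per condition their number limits the precision.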
